A study of Mus musculus with 9 samples.

Results

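Non-dividing classical monocytes of the bone marrow were taken from single cell RNA sequencing of 9 female mice, 3 each of the inbred New Zealand strains NZB (black) and NZW (white) and of their NZBWF1 offspring. Cells were chosen by transcripts, as UMIs (unique molecular identifiers, 1 per captured RNA molecule). A barcode had to hold at least 3 UMIs of *F13a1*, *Ccr2*, and *Fn1* together, and at least 1 of *Csf1r*, *Ly86*, and *Ms4a6c*. It could hold no UMI of the division genes *Mki67* and *Top2a*, none of *Siglech*, *Cd79a*, *Ace*, or *Treml4*, and fewer than 3 of the 3 C1q genes. *Mpo*, *Elane*, and *Prtn3* together had to stay under 1% of UMIs, as had *Camp* and *Ngp*. This chose 2693 of 39051 kept cells. The mice were 9 to 10 weeks old and carried no transgene or treatment, and NZBWF1 mice develop a lupus-like illness later in life. Marrow was flushed from both femurs, red cells were lysed, and 1 library was made per mouse, so that the mouse is the replicate.

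Classical monocytes leave the marrow through the chemokine receptor CCR2 and enter inflamed tissue, where they may become macrophages or dendritic-like cells. Some instead turn into nonclassical monocytes, which patrol vessels and carry the receptor CX3CR1. Type I interferon induces a set of antiviral genes in these cells, and lupus is known for a raised level of such genes in blood.

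The genes of the rule itself are given as a description. Levels are CPM, the UMIs of a gene per 1000000 UMIs of the summed cells of a mouse. *Ccr2* averaged 1844 ± 242 CPM in the NZB mice, 2264 ± 201 in the NZW mice, and 2343 ± 12.8 in the NZBWF1 mice. These and later values with an error are means ± SD over 3 mice of a strain. *Csf1r*, the receptor of macrophage colony-stimulating factor, averaged 221 ± 18.2, 311 ± 29.5, and 368 ± 14.6. *F13a1* lay between 1180 and 1798 CPM in the 9 mice and *Fn1*, fibronectin, between 1652 and 3169. Cells just outside the limit, with 2 UMIs of *F13a1*, *Ccr2*, and *Fn1*, numbered 97 and held 8743 CPM of *Lyz2* and 721 of *Ly6c2*. Those just inside, with 3, numbered 125 and held 12744 and 1219.

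The label was checked against markers that the rule did not use. *Lyz2*, lysozyme, stood at 21927 CPM in the monocytes and at 7575 in all other kept cells, and *Ly6c2* at 1072 and 312. *Plac8* and *Cd14* were also higher, each in 9 of 9 mice, but *Hp* was not, with a ratio of 1.02. Among genes outside the rule with at least 100 CPM in the monocytes, the highest ratio was that of *Ms4a8a* (27.6). It was followed by *Slfn5* (26.9), *Vcan* (22.7), *Clec4a1* (18.6), and *Lrp1* (16.3). *Vcan* averaged 171 CPM with an SD of 173 over the 9 mice, and reached that limit through its level in NZB, given below. *S100a4* had the highest level among the leading 15 genes, at 1071 CPM. Since the cells were chosen by transcripts, the ratios carry no test. *Chil3*, a usual marker of neutrophil-like monocytes, had 0 UMIs in all mice, and the share of cells planned on it is not given.

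UMIs of the monocytes summed to between 255162 and 1010734 per mouse, with 94 to 589 cells. The median depth of a cell was 2036 to 2540.5 UMIs in NZB, 1481 to 1906 in NZW, and 1585 to 2188.5 in NZBWF1. Neutrophil markers summed to 2065 to 9299 CPM in NZB, 2683 to 5863 in NZW, and 4958 to 7594 in NZBWF1 (all 10 detected), against 357030 to 406763 in granule-high neutrophils. The latter are 8430 cells with at least 1% of UMIs from *Camp* and *Ngp* and none from the division genes or the monocyte genes of the rule. B and plasma cell markers summed to 270 to 400, 615 to 855, and 544 to 843, with all 11 detected. Dendritic cell markers summed to 66.6 to 180, 238 to 281, and 185 to 207, with all 10 detected. No doublet caller was run. The same 16-base barcode occurred in another library for 23 of the monocytes.

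The share of non-dividing monocytes among kept cells was lowest in NZB. The 3 NZB mice had 3.83%, 3.03%, and 4.17%, the 3 NZW mice 6.75%, 9.66%, and 9.03%, and the 3 NZBWF1 mice 4.60%, 10.6%, and 6.42%. Every NZB value lay below every value of the other strains, and the NZBWF1 range enclosed that of NZW. Means were 3.68 ± 0.583%, 8.48 ± 1.53%, and 7.21 ± 3.08%, which did not differ among the 3 strains at the threshold (p = 0.0679, exact permutation, 280 ways to divide the mice, adjusted p = 0.0814 over 6 such shares). Without NZBWF1 replicate 2 the p was 0.0143. The 6 include the shares with division genes, with further cycle genes, and with 10 interferon-stimulated genes. Those are given below as descriptions, since the rule used the genes or they were chosen after the data were seen. Counting them in the adjustment lowers the adjusted p of the remaining shares. None of the remaining shares had an unadjusted p under 0.05 by exact permutation. Among cells of at least 2000 UMIs and 1000 genes the strains overlapped, with 3.72% to 7.20% in NZB, 2.93% to 6.88% in NZW, and 4.10% to 7.30% in NZBWF1 (p = 0.979, exact permutation). Fewer monocytes and more of the other cells cannot be told apart in a share. The share also depends on the limit on division genes. In NZB 146, 557, and 213 cells failed that limit alone, beside 94, 155, and 137 chosen. In NZW 198, 320, and 293 did, beside 291, 497, and 447. In NZBWF1 89, 296, and 230 did, beside 118, 589, and 365. The share therefore does not show that NZB marrow held fewer cells of the lineage.

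Cells with division genes were more frequent in NZB, which is given as a description because the rule used these genes. Among all cells that met the remaining limits, the percent with a UMI of *Mki67* or *Top2a* was 60.8, 78.2, and 60.9 in NZB. It was 40.5, 39.2, and 39.6 in NZW, and 43.0, 33.4, and 38.7 in NZBWF1. No NZB mouse overlapped with the others. With every barcode thinned to 1000 UMIs the means were 48.1 ± 14.8%, 23.5 ± 0.280%, and 21.7 ± 1.85%.

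Within the monocytes, 12 further cycle genes, among them *Pcna*, *Ube2c*, and *Cenpa*, gave at least 1 UMI in 46.8%, 58.7%, and 35.8% of cells in NZB. The NZW mice had 21.6%, 16.9%, and 22.1%, and the NZBWF1 mice 19.5%, 19.9%, and 22.7%. Thinned to 1000 UMIs per cell, the percent was 27.8 ± 8.32, 14.1 ± 0.920, and 12.0 ± 2.32 in that order. This is a description, since the 12 genes were chosen after the data were seen. *Pcna*, *Ube2c*, *Cenpa*, *Ccna2*, *Ccnb2*, and *Birc5* are among those called higher in NZB than in NZW. The 4 strain comparisons of genes were therefore also computed without the 653 cells that held a UMI of the 12 genes. That set was chosen after the data were seen.

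**Figure D1:**
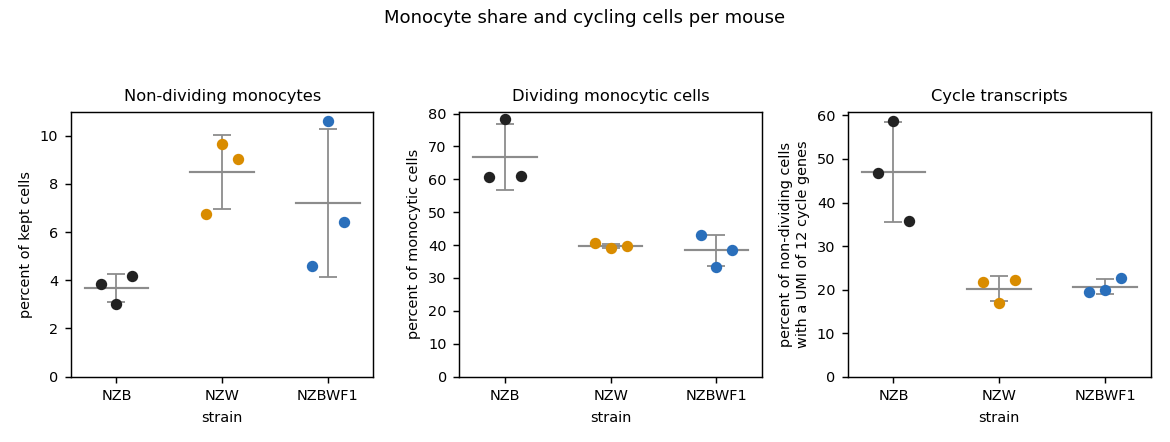
Percent per mouse (points) with the strain mean (line) and SD (error bar), n = 3 mice per strain. Left, non-dividing monocytes among kept cells; centre, dividing cells among all monocytic cells; right, non-dividing monocytes with a UMI of 12 cycle genes, not thinned. In the centre and right panels all NZB points lie above all others.

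Strains were compared gene by gene on UMIs summed per mouse, with the edgeR quasi-likelihood test and Benjamini-Hochberg adjustment over 6780 genes. NZB stood apart, and NZBWF1 was close to NZW. Between NZB and NZW 1063 genes passed (15.7% of those tested), 596 higher in NZB (8.79%) and 467 lower (6.89%). Counts of gene lists between these strains, given below, are to be read beside those shares of all genes. Between NZBWF1 and NZB 668 genes passed (9.85%), 281 higher in NZBWF1 (4.14%) and 387 lower (5.71%). Between NZBWF1 and NZW only 47 passed (0.693%), 31 higher (0.457%) and 16 lower (0.236%). Set against the parents' average on the log scale (the mid-parent level, used in the study's methods), 92 genes passed (1.36%), 54 higher in NZBWF1 (0.796%) and 38 lower (0.56%). Against the arithmetic mean of the parents the balance of directions turned, with 116 genes, 31 higher and 85 lower. For this mean an NZB and an NZW mouse of the same replicate number were thinned to equal UMIs and added. It was compared with NZBWF1 in a separate fit with its own filter and spread, so the counts are not like for like. No gene (0 higher and 0 lower) passed in the same direction against both parents by edgeR, where 1548 genes had an unadjusted p under 0.05 against NZB and 514 against NZW. For 815 of the 1063 genes that differed between the parents, the NZBWF1 mean lay between theirs. This is a description, since those genes were called for distant parental means, between which a further mean readily falls. The same share over all genes tested is not given. The comparisons share mice and are not independent of each other. Without NZB replicate 2 the count between the parents was 639 and that between NZBWF1 and NZB 311. Without the cells with cycle UMIs the counts were 586 and 268, and 36 against the mid-parent level. Leaving out NZB replicate 2 brought that last count to 49, and leaving out replicate 2 or 3 of NZBWF1 brought it to 51 or 43. Between NZBWF1 and NZW it was 30 without NZW replicate 3 and 28 without NZBWF1 replicate 3.

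Immediate early and heat shock genes, which cells also induce when a tissue is handled, moved with the strains. All 15 were detected, and they summed to 841 to 902 CPM in NZB, 548 to 610 in NZW, and 627 to 717 in NZBWF1, so that every NZB mouse lay above the others. Of 8 tested 3 were higher in NZB than in NZW (*Hsph1*, *Junb*, and *Fos*) and 0 lower, with a median of 0.36. *Fos* had 104 ± 42.5 CPM in NZB, 30.4 ± 17.6 in NZW, and 29.4 ± 6.68 in NZBWF1. Only 2 genes of the list passed without NZB replicate 2, and also 2 without the cells with cycle UMIs. The part of handling in the strain differences was not tested.

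More genes induced by interferon were lower than higher in NZB monocytes beside those of NZW. Of 48 tested genes of the list 17 were lower in NZB and 2 were higher, and the median log2 difference was -0.57 beside -0.01 over all genes tested. Against NZB, 20 were higher in NZBWF1 and 1 was lower, with a median of 0.59. Against NZW none of the 48 passed in NZBWF1, with a median of 0.08. The levels of the whole list overlapped between the parents, with a sum of 9380 to 11400 CPM in NZB and 10902 to 12439 in NZW, and 11742 to 13097 in NZBWF1. Macrophage markers, all 10 detected, summed to 108 to 282 CPM in NZB, 197 to 326 in NZW, and 240 to 356 in NZBWF1. Of 4 tested 1 (*Mrc1*) was lower in NZB than in NZW and 3 (*Mrc1*, *Axl*, and *Adgre1*) were higher in NZBWF1 than in NZB, and their part in the result was not tested. Without NZB replicate 2 the count lower in NZB was 11, and that higher in NZBWF1 than in NZB was also 11. Without the cells with cycle UMIs 13 of 46 were lower in NZB (4.63% of all genes tested) and 2 higher (5.23%), with a median of -0.63, and 9 were higher in NZBWF1 than in NZB (2.09%). In cells of at least 2000 UMIs and 1000 genes 4 of 35 were lower in NZB (2.84% of 4116 genes) and 2 higher (3.57%), with a median of -0.39, and 5 were higher in NZBWF1 than in NZB (1.29%).

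Members of the *Ifit* family, whose proteins bind foreign RNA, were among the genes with lower levels in NZB. *Ifit3* gave 3.92, 2.99, and 0 CPM in NZB, 47.9, 64.0, and 92.3 in NZW, and 56.3, 64.3, and 108 in NZBWF1. It had 2 UMIs in the 3 NZB mice together, and the NZBWF1 and NZW values overlapped. The ratio of the pooled NZW level to that of NZB was 32.0, with a 95% interval of 8.71 to 266 for counting error. *Ifit1* had 8.01 ± 3.25 CPM in NZB, 48.1 ± 10.3 in NZW, and 35.8 ± 15.5 in NZBWF1, and differed between the parents by -2.62 ± 0.45 (log2 ± SE, edgeR adjusted p = 2.65e-05). *Rsad2*, viperin, had 10.0 ± 3.21, 64.2 ± 1.49, and 44.3 ± 16.7 (log2 -2.66 ± 0.39, adjusted p = 1.09e-06).

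*Irf7*, the transcription factor that amplifies the interferon response, had 39.2, 32.9, and 47.3 CPM in NZB, 104, 128, and 118 in NZW, and 165, 104, and 252 in NZBWF1. No NZB mouse reached the others. The difference between the parents was -1.55 ± 0.45 (log2, edgeR adjusted p = 0.0413) and was not past the threshold without the cells with cycle UMIs (log2 -1.31, adjusted p = 0.115). *Isg15*, a protein tag joined to other proteins, had 58.1 ± 28.5 in NZB, 99.4 ± 8.94 in NZW, and 130 ± 26.0 in NZBWF1. It was higher in NZBWF1 than the mid-parent level, by 0.69 ± 0.18 (adjusted p = 0.0396). *Oasl2*, *Ifit3*, *Samhd1*, and *Ifi27l2a* also passed in that comparison, 5 of 48, with a list median of 0.38 beside 0.01 over all genes. The count was 3 without NZW replicate 1 or NZBWF1 replicate 3. *Oasl2* was higher there by 1.15 ± 0.22 (adjusted p = 0.00118). *Ifitm6* and *Apobec3* went the other way and were higher in NZB, *Ifitm6* with 814 ± 259 CPM against 448 ± 88.3 in NZW (log2 0.87 ± 0.19, adjusted p = 0.00465).

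**Figure D2:**
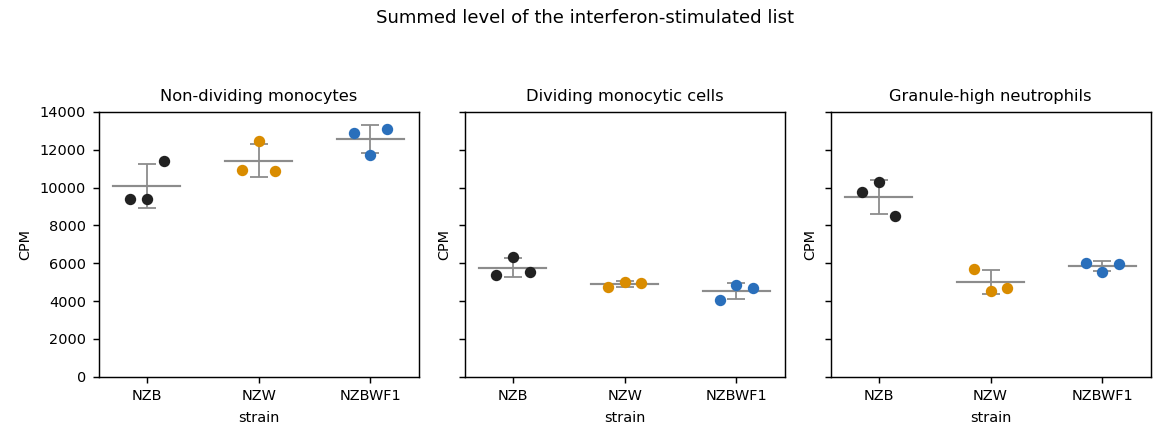
Summed level of all 53 measured genes of the interferon-stimulated list in CPM, per mouse (points), with the strain mean (line) and SD (error bar), n = 3 mice per strain. In non-dividing monocytes (left) NZB overlaps NZW, while in dividing cells (centre) and neutrophils (right) every NZB mouse lies above the others. *Ifitm3* alone averages 2037 CPM in NZB and 1302 in NZW in dividing cells, and 1970 and 605 in neutrophils.

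The strains stood in another order in the dividing cells of the same lineage and in neutrophils. The whole list summed to 10067 ± 1155, 11429 ± 875, and 12573 ± 728 CPM in the non-dividing monocytes of NZB, NZW, and NZBWF1. In dividing cells it summed to 5756 ± 498, 4896 ± 141, and 4528 ± 434, and in neutrophils to 9504 ± 916, 4988 ± 632, and 5847 ± 254, so that NZB was the highest in both. *Ifitm3* alone gave 2037 ± 137, 1302 ± 59.1, and 1299 ± 119 in dividing cells, and 1970 ± 256, 605 ± 77.7, and 921 ± 96.5 in neutrophils. The 10 genes of the next paragraph overlapped among the strains. They summed to 60.0 to 127, 62.9 to 84.4, and 61.7 to 98.6 CPM in dividing cells, and to 104 to 170, 87.4 to 105, and 68.0 to 145 in neutrophils. The difference between the parents was tested against that in dividing cells in 1 model with the mouse as a block, where 188 of 8260 genes passed (2.28%). Of 49 genes of the list, 18 passed with a lower NZB to NZW ratio in non-dividing than in dividing cells and 1, *Ifitm2*, with a higher one, and the median difference was -0.99 (log2). Against neutrophils 21 of 51 passed in the lower direction and 0 in the other, with a median of -1.25, where 3.76% of 8873 genes passed in all. For NZBWF1 over the mid-parent level, 5 of 49 passed as higher than in dividing cells (0.521% of all genes passed) and 2 of 51, *Irf7* and *Ifit3*, as higher than in neutrophils (0.0676%). Counts over all genes fell for the parents' comparison with dividing cells to 60 without NZB replicate 2 and to 113 without NZW replicate 2. With neutrophils they fell from 334 to 212 without NZB replicate 2, 207 without NZB replicate 3, and 184 without NZW replicate 3. Those for NZBWF1 over the mid-parent level moved with dividing cells from 43 to 19 without NZBWF1 replicate 1, 21 without NZB replicate 2, 24 without NZBWF1 replicate 3, 26 without NZW replicate 1, and 82 without NZB replicate 3. With neutrophils they moved from 6 to 2 without NZBWF1 replicate 3 and to 12, 16, and 18 without NZB replicate 1, NZW replicate 2, and NZBWF1 replicate 1. In 1 NZBWF1 mouse the dividing cells held B cell markers at 7586 CPM (248 to 582 in the others), and the part of these in that comparison was not tested.

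The share of monocytes with UMIs of *Isg15*, *Ifit1*, *Ifit2*, *Ifit3*, *Irf7*, *Oasl1*, *Oasl2*, *Rsad2*, *Rtp4*, and *Cmpk2* is given as a description. These 10 genes were chosen after the data were seen and are among the 17 called lower in NZB, so the order of the parents was fixed by the choice. Its p is therefore not given, although it counted among the 6 shares of the adjustment. After thinning to 2000 UMIs, 907 cells were deep enough, 259 of NZB, 353 of NZW, and 295 of NZBWF1. At least 3 UMIs of the 10 genes were found in 2.56%, 4.55%, and 3.23% of cells in NZB, 10.9%, 9.46%, and 10.6% in NZW, and 10.7%, 8.26%, and 20.7% in NZBWF1. At least 1 UMI was found in 25.6%, 20.5%, and 19.4% of cells in NZB, 34.4%, 20.3%, and 25.8% in NZW, and 53.3%, 33.0%, and 36.9% in NZBWF1. NZB and NZW did not overlap at 3 UMIs but did at 1 UMI. Not thinned, at 3 UMIs, the means were 4.79 ± 2.27%, 10.5 ± 0.369%, and 12.3 ± 2.11%. In neutrophils at the same depth the share was 1.21% of 4965 cells. The median depth before thinning was 1755 UMIs in monocytes and 2115 in neutrophils.

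The promoters of the list were read for the element that interferon-activated factors bind, taken here as GAAA, any 2 bases, and GAAA on either strand, in the 250 bases before the start of each RefSeq gene (GRCm38.p6). It was present for 21 of 42 genes of the list (50%), and for 3.72% of 5428 tested genes and 3.46% of all 27025. Of the genes lower in NZB than in NZW 14 had a promoter sequence and 6 held the element, which are *Ifit1*, *Ifit3*, *Isg15*, *Rsad2*, *Bst2*, and *Slfn5*. A match describes the letters and is not evidence of binding. The others with a promoter sequence, *Irf7* and *Oasl2* among them, did not hold it. Sequences of 4 of these 6 genes are shown because their levels are given above, 5′ to 3′ on the strand of the gene. The element (read as TTTC, any 2 bases, and TTTC from the other strand, overlaps joined) is in capitals. In the order shown, they lie at chr19:34583343-34583446 (plus strand), chr19:34640755-34640843 (plus), chr4:156200845-156200926 (minus), and chr12:26456533-26456602 (minus).
Ifit3: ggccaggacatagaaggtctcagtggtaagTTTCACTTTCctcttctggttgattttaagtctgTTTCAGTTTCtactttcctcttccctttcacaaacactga
Ifit1: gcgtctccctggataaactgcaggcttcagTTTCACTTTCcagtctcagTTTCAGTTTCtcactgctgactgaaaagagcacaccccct
Isg15: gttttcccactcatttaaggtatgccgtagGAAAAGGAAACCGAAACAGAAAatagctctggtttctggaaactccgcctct
Rsad2: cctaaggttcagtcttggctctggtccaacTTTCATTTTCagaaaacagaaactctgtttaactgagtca

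The *Ifi200* genes, neighbours on chromosome 1 whose proteins sense DNA or control growth, differed by strain in both directions. Of 10 tested, 7 were lower in NZB than in NZW and 1, *Ifi202b*, was higher, and each of the 7 was also higher in NZBWF1 than in NZB. The counts between the parents held without any 1 mouse and without the cells with cycle UMIs, where 4 were higher in NZBWF1 than in NZB. *Ifi202b* (1:173962568-173982744 in GENCODE vM21 on GRCm38, minus strand) gave 357, 424, and 466 CPM in NZB, 0 in all 3 NZW mice, and 218, 226, and 233 in NZBWF1. With a floor of 3 UMIs over the strain NZB was at least 318-fold higher than NZW. *Mndal* gave 10.6 ± 7.62, 280 ± 23.5, and 150 ± 17.8 CPM, and *Ifi203* 66.3 ± 35.3, 366 ± 59.8, and 214 ± 19.4. *Ifi206* had no UMI in NZB and 23.3 ± 4.27 CPM in NZW, at least 6.93-fold more. These genes are near-identical in places, and how reads were shared among them was not tested.

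Among genes that mark classical monocytes, 4 of 25 were higher and 5 lower in NZB than in NZW, with a median of 0.01. *Vcan*, the matrix proteoglycan versican, gave 290, 487, and 387 CPM in NZB, 106, 21.3, and 23.1 in NZW, and 97.6, 47.5, and 75.2 in NZBWF1. All NZB mice were above the others, by 3.11 ± 0.57 over NZW (log2, edgeR adjusted p = 0.0134). *Hp*, haptoglobin, was higher in NZB by 1.12 ± 0.13 (adjusted p = 6.45e-08), as were *Emb* and *Cd14*. *Cybb*, the catalytic subunit of the phagocyte oxidase, gave 1442, 983, and 1153 in NZB, 2486, 2402, and 2363 in NZW, and 2259, 2184, and 2023 in NZBWF1. The highest NZB mouse had less than the lowest of the other strains, and the parents differed by -1.02 ± 0.11 (adjusted p = 1.41e-09). *Mpeg1*, *Ccl6*, *Clec4a1*, and *Ly6c2* were lower in NZB as well. Without NZB replicate 2 the count higher in NZB was 2, and without NZW replicate 3 it was also 2.

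Differences of *Cybb* between NZB and NZW were larger in non-dividing than in dividing cells, by -0.83 ± 0.09 (log2, edgeR, adjusted p = 2.54e-11 over 8260 genes). In dividing cells it gave 685 ± 55.6 CPM in NZB and 789 ± 47.7 in NZW. The comparison was not computed without the cells with cycle UMIs, which were more frequent among NZB monocytes. Of the other oxidase genes *Ncf1* was lower in NZB and *Cyba* and *Ncf4* were higher, which made 2 higher and 2 lower of 7. The count higher was 0 without NZW replicate 3 and 1 without NZB replicate 2 or 3, and the count lower was 1 without NZB replicate 3 or NZW replicate 2.

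*Ly6c2*, the surface antigen by which classical monocytes are sorted, gave 376, 355, and 353 CPM in NZB, 1660, 1857, and 1651 in NZW, and 1092, 1120, and 1187 in NZBWF1. The groups did not overlap, and NZBWF1 lay between the parents. Its neighbour *Ly6c1* gave 274, 188, and 176 in NZB, 0, 0, and 2.31 in NZW, and 109, 95, and 106 in NZBWF1. The order of the strains was the reverse of that of *Ly6c2*. Summed, the pair gave 574 ± 66.3, 1723 ± 116, and 1236 ± 49.3 CPM. The copies are near-identical, and the assignment of reads between them was not tested.

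*Ftl1*, the ferritin light chain, and its copy *Ftl1-ps1*, named as a pseudogene, also ran against each other. *Ftl1* (7:45457944-45459884, minus strand) gave 7964, 6617, and 7428 CPM in NZB, 157, 192, and 171 in NZW, and 3456, 2994, and 3478 in NZBWF1. *Ftl1-ps1* (13:74399694-74407346, plus strand) gave 19.6, 26.9, and 18.9 in NZB, 5010, 4841, and 4380 in NZW, and 2743, 2551, and 3429 in NZBWF1. Added together they gave 7358 ± 674, 4917 ± 324, and 6217 ± 682, so the sum differed far less than either copy. The assignment of reads between them was not tested, so a low level of either may not mean that the transcript was scarce. *Fth1*, the heavy chain, was higher in NZB than in NZW by 0.59 ± 0.10 (log2, edgeR adjusted p = 1.5e-05), with 3431 ± 117 CPM against 2284 ± 17.4. NZBWF1 had 2810 ± 208. *Hmox1*, heme oxygenase, was higher in NZB than in NZW by 0.83 ± 0.23 (adjusted p = 0.0123).

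Transcription factors of the lineage were more often lower in NZB, 8 of 23 against 2 higher, with a median of -0.29. Over all genes tested 6.89% were lower and 8.79% higher, so the count higher is near that share. *Zeb2*, which maintains the identity of monocytes, gave 557, 394, and 441 CPM in NZB, 823, 812, and 885 in NZW, and 788, 735, and 766 in NZBWF1. It did not overlap between NZB and the other strains, and the parents differed by -0.86 ± 0.12 (log2, edgeR adjusted p = 6.86e-07). *Irf8*, needed for monocyte commitment, was lower in NZB by -0.69 ± 0.13 (adjusted p = 9.95e-05), with 333 ± 56.7 in NZB, 542 ± 48.8 in NZW, and 431 ± 28.3 in NZBWF1. *Klf2*, *Klf4*, *Irf4*, *Irf5*, *Runx1*, and *Bach1* were also lower. *Irf4* is also among the dendritic cell markers. It had 1 UMI in NZB and 65 in NZW, a ratio of 26.0 with a 95% counting interval of 4.50 to 1042. The part of dendritic-like cells in these differences was not tested. *Cebpb* and *Cebpd*, factors of myeloid maturation and inflammation, were higher in NZB by 0.81 ± 0.15 (adjusted p = 0.000332) and 0.84 ± 0.13 (adjusted p = 5.96e-06). *Spi1*, which encodes the factor PU.1, gave 446 ± 82.8, 480 ± 29.0, and 446 ± 21.1 CPM and did not pass. Without NZW replicate 3 the count lower in NZB was 5, and without the cells with cycle UMIs it was 5.

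Genes that rise toward nonclassical monocytes were lower in NZB in 4 of 9 and higher in 1, with a median of -0.58. *Cx3cr1* gave 15.7, 17.9, and 50.4 CPM in NZB, 104, 212, and 147 in NZW, and 143, 121, and 175 in NZBWF1. All NZB mice were below the others (log2 -2.44 ± 0.43 against NZW, edgeR adjusted p = 0.00218), but without the cells with cycle UMIs the adjusted p was 0.108. The count lower in NZB was 2 of 9 without those cells, and 1 of 7 in cells of at least 2000 UMIs and 1000 genes. *Adgre4*, *Gngt2*, and *Stk10* were lower too, and *Cebpb* was the gene that was higher. Nonclassical monocytes themselves, cells with *Ace* or *Treml4*, made up 0.653 ± 0.474%, 0.853 ± 0.121%, and 0.785 ± 0.435% of kept cells (p = 0.839, exact permutation).

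**Figure D3:**
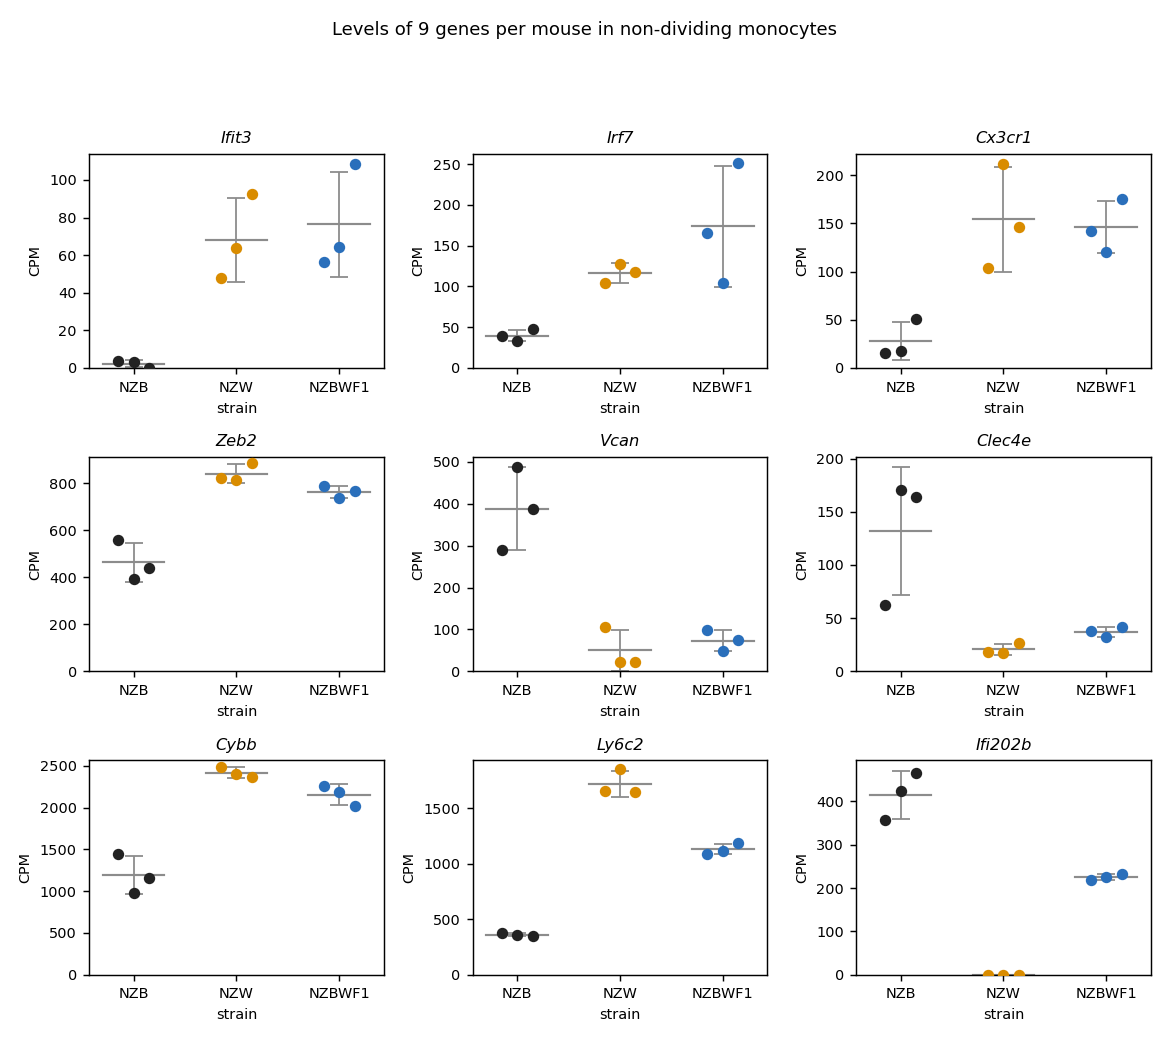
Levels of *Ifit3*, *Irf7*, *Cx3cr1*, *Zeb2*, *Vcan*, *Clec4e*, *Cybb*, *Ly6c2*, and *Ifi202b* in non-dividing monocytes, in CPM, per mouse (points), with the strain mean (line) and SD (error bar), n = 3. NZB stands apart from NZW and NZBWF1 in all 9 panels. For *Zeb2*, *Clec4e*, *Cybb*, *Ly6c2*, and *Ifi202b* the NZBWF1 points lie between those of the parents without overlap.

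Receptors for microbial products were more often higher in NZB, with 6 of 17 higher and 1 lower, and a median of 0.36. *Clec4e*, a receptor for mycobacterial and fungal glycolipids, gave 62.7, 170, and 164 CPM in NZB, 18.2, 17.6, and 26.5 in NZW, and 37.5, 32.6, and 41.9 in NZBWF1. The 3 strains did not overlap, and NZB was above NZW by 2.69 ± 0.28 (log2, edgeR adjusted p = 2.48e-09). *Tlr2*, *Tlr4*, *Clec4d*, *Cd14*, and the inflammasome adaptor *Pycard* were higher as well. *Nlrp3*, an inflammasome sensor, was lower in NZB, with 15.3 ± 5.74 against 55.6 ± 4.74 CPM (log2 -1.83 ± 0.35, adjusted p = 0.000129) and 36.0 ± 8.79 in NZBWF1. Relative to the mid-parent level, *Pycard* in NZBWF1 differed by -0.71 ± 0.13 (adjusted p = 0.000488). Without NZB replicate 2, NZB replicate 3, or NZW replicate 3 the count higher in NZB was 4, while 5 of 16 were higher without the cells with cycle UMIs.

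Among complement genes, *Cfp*, which stabilises the alternative pathway convertase, was higher in NZB than in NZW by 0.90 ± 0.19 (log2, edgeR adjusted p = 0.000533). *C5ar1*, the receptor of the anaphylatoxin C5a, had 71.7 ± 11.2 CPM in NZB, 27.0 ± 4.17 in NZW, and 34.4 ± 10.1 in NZBWF1 (log2 1.43 ± 0.28 between the parents, adjusted p = 0.000153). Of 8 *S100* genes 4 were higher in NZB, which were *S100a6*, *S100a10*, *S100a11*, and *S100a13*. *S100a11* had 1213 ± 151 CPM in NZB, 534 ± 76.0 in NZW, and 568 ± 26.7 in NZBWF1, and was below the mid-parent level in NZBWF1 (-0.52 ± 0.11, edgeR adjusted p = 0.00258). *S100a8*, which neutrophils carry in plenty, ranged from 882 to 4054 CPM among the NZB mice and did not pass (adjusted p = 0.485).

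Genes of neutrophil-like monocytes were higher in NZB in 7 of 14 and lower in 2, with a median of 0.50. *Lcn2*, which sequesters bacterial iron carriers, gave 321, 559, and 387 CPM in NZB, 74.4, 120, and 87.7 in NZW, and 116, 140, and 179 in NZBWF1 (log2 2.17 ± 0.21 between the parents, edgeR adjusted p = 2.1e-07). *Mmp8*, *Gstm1*, *Mgst1*, *Gsr*, *Clec5a*, and *Lrg1* were also higher, and *Cd177* and *Plbd1* lower. *Lcn2* and *Mmp8* are neutrophil markers too, whereas the summed neutrophil markers in NZB ranged over those of the other strains, and their part in the result was not tested. Without NZB replicate 2 the count higher in NZB was 4, without NZW replicate 3 it was 4, and without the cells with cycle UMIs it was 4 of 13.

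Genes of dendritic-like monocytes were lower in NZB in 3 of 11, which were *Cd209a*, *Clec10a*, and *Ciita*, with a median of -1.80. The count was 0 without NZB replicate 2, 5 without NZW replicate 1, and 1 without NZB replicate 1, NZW replicate 2, NZW replicate 3, NZBWF1 replicate 1, or the cells with cycle UMIs. *Cd74*, the invariant chain of MHC class II, gave 314, 146, and 725 CPM in NZB, 484, 1988, and 1644 in NZW, and 1141, 889, and 1545 in NZBWF1, and did not pass between the parents (edgeR adjusted p = 0.168). Dendritic cell markers, given above, were also lowest in NZB, and their part was not tested. At least 3 UMIs of *Cd74*, *H2-Aa*, *H2-Ab1*, and *H2-Eb1* were found, after thinning to 2000 UMIs, in 3.34 ± 2.74% of NZB cells, 10.8 ± 3.77% of NZW cells, and 14.1 ± 5.15% of NZBWF1 cells (p = 0.0536, exact permutation, adjusted p = 0.0804). Not thinned, the means were 3.54 ± 2.62%, 9.83 ± 4.06%, and 11.5 ± 1.85%. In neutrophils 2.92% of 4965 cells met it, and the NZB share was near that background. Without NZBWF1 replicate 2 the p was 0.0143. MHC class II alleles differ among these strains, and how that affects read assignment was not tested.

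**Figure D4:**
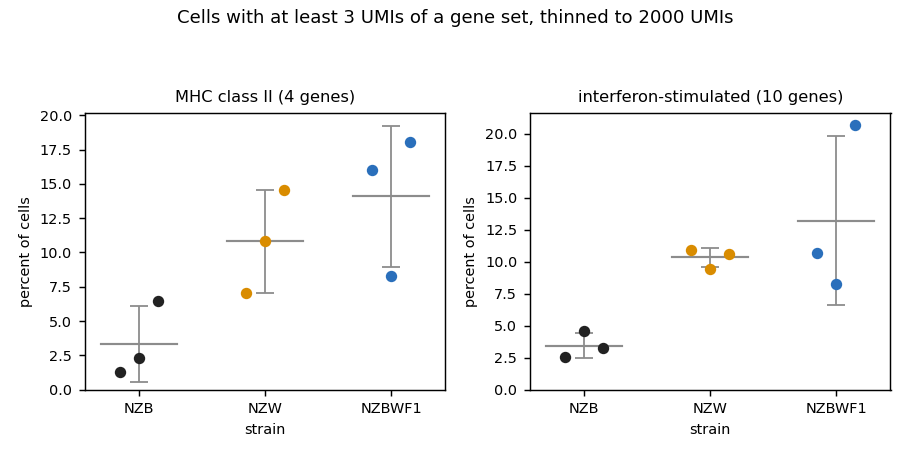
Percent of non-dividing monocytes, thinned to 2000 UMIs, with at least 3 UMIs of 4 MHC class II genes (left) or of 10 interferon-stimulated genes (right), per mouse (points), with the strain mean (line) and SD (error bar), n = 3. In the right panel the 3 NZB mice lie at 2.56% to 4.55%, below the other 6.

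Of 21 cytokine receptors 4 were lower in NZB (*Il6ra*, *Tnfrsf1b*, *Il17ra*, and *Il10ra*) and 2 higher (*Il4ra* and *Csf2rb*). Over all genes tested 6.89% were lower and 8.79% higher, so the count higher is near that share. The count lower was 2 without NZB replicate 2 or NZW replicate 3. The count of receptors higher was 1 without NZB replicate 2 or 3 or NZW replicate 3. Of 19 chemokine receptors and adhesion molecules *Itga4*, *Cx3cr1*, and *Cd47* were lower. *Ccr1*, a receptor for inflammatory chemokines, was higher in NZB and had 199 ± 66.8 CPM in NZB, 62.2 ± 13.2 in NZW, and 69.7 ± 24.5 in NZBWF1. Of 5 Fc receptors *Fcgr2b*, the inhibitory one, was lower in NZB by -1.10 ± 0.26 (edgeR adjusted p = 0.00203) and *Fcgr1* higher by 0.80 ± 0.25 (adjusted p = 0.0242). The call of *Fcgr1* was lost without NZB replicate 2 or 3, NZW replicate 1 or 3, or the cells with cycle UMIs. Of 20 lysosomal genes 4 were higher in NZB and 2 lower, the former being *Ctsz*, *Ctsc*, *Ctsd*, and *Cstb*, and the count higher was 2 without NZB replicate 2. *Ctse* had 1 UMI in NZB and 206 in NZW, a ratio of 82.4 with a 95% counting interval of 14.6 to 3270. Of 13 MHC class I genes *H2-D1* and *H2-Q7* were higher and *Tapbp*, *H2-T22*, and *H2-T23* lower. Without NZB replicate 3 the counts were 1 higher and 2 lower, and without NZW replicate 2 the count lower was 2. How alleles and similar copies affect the assignment of reads to these genes was not tested.

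**Figure D5:**
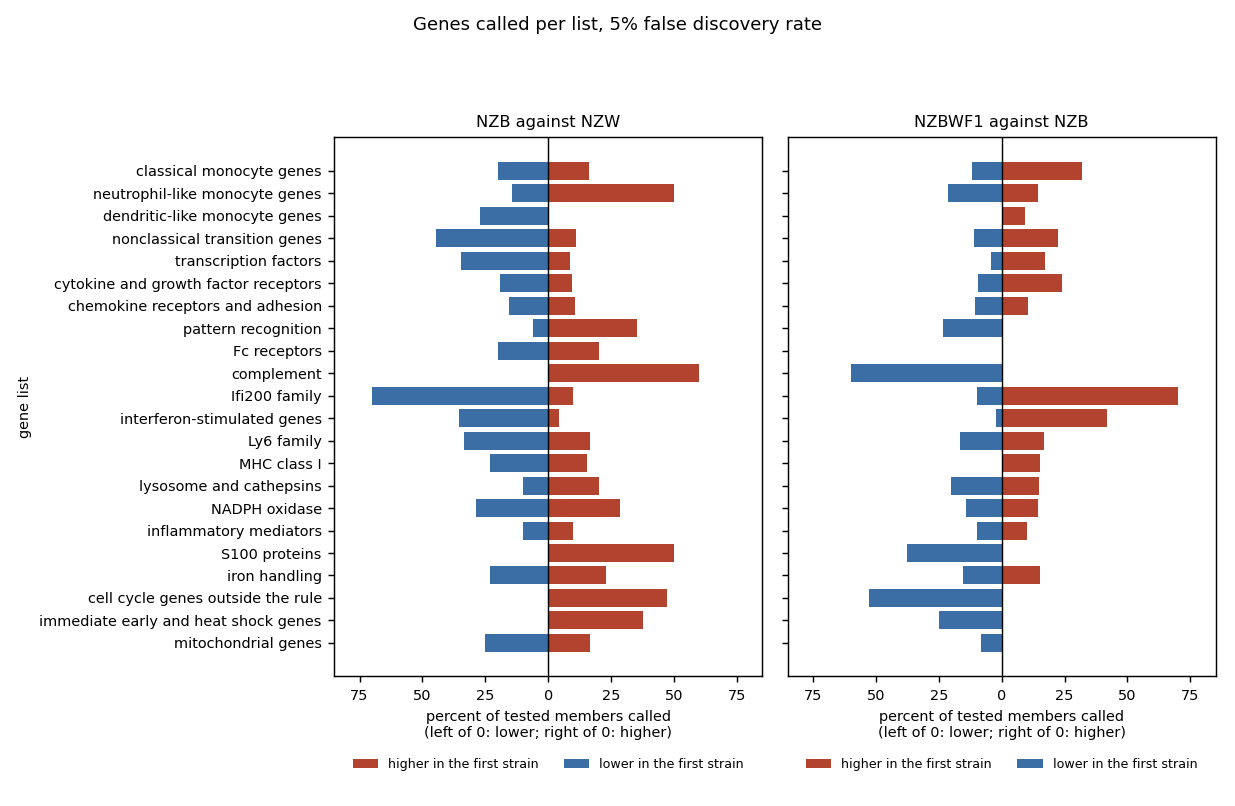
Percent of the tested members of each list that passed (edgeR, adjusted p under 0.05), to the right where higher and to the left where lower in the first strain named. Left, NZB against NZW; right, NZBWF1 against NZB. The *Ifi200* family, interferon-stimulated genes, and cell cycle genes point in opposite directions in the 2 panels, which share the NZB mice.

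Cycle genes that the rule did not use were higher in NZB monocytes in 8 of 17 and lower in none, with a median of 0.89. *Cenpa*, a histone of centromeres, gave 118, 161, and 94.5 CPM in NZB, 61.2, 71.5, and 42.7 in NZW, and 26.3, 43.5, and 46.3 in NZBWF1. In NZBWF1 it differed from the mid-parent level by -1.05 ± 0.21 (log2, edgeR adjusted p = 0.00197), and *Ccnb2* and *Hmgb2* were lower too, 3 of 17 with a median of -0.75. This count was 5 without NZB replicate 1 and 6 without NZB replicate 3. Without the cells with cycle UMIs *Hmgb2* was at 0.015 and not past the threshold. The list summed to 1969 to 2990 CPM in NZB, 1704 to 1798 in NZW, and 1047 to 1567 in NZBWF1, against 10022 to 11749 in dividing cells. Without NZB replicate 2 the count higher in NZB was 2, and without the cells with cycle UMIs it was 1 of the 6 still tested, a drop that the choice of cells largely sets, since those cells were left out for UMIs of 12 genes of the list. In cells of at least 2000 UMIs and 1000 genes 0 of 12 passed between NZB and NZW by edgeR (1 at an unadjusted p under 0.05), with a median of 0.03. Against the mid-parent level 0 of 12 passed (3 unadjusted), with a median of -0.58.

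Counts of other lists also fell between NZB and NZW in cells of at least 2000 UMIs and 1000 genes, where 264 of 4116 genes passed, 3.57% as higher and 2.84% as lower in NZB. The count lower in NZB was 1 of 25 for classical monocyte genes, 0 of 9 for dendritic-like monocyte genes (edgeR, 1 at an unadjusted p under 0.05), and 5 of 20 for transcription factors, where 3 others were higher. The count higher was 4 of 13 for neutrophil-like monocyte genes, 4 of 11 for receptors of microbial products, and 2 of 8 for *S100* genes. No cytokine receptor of 17 passed in either direction by edgeR (4 unadjusted). Of the *Ifi200* genes 5 of 8 were lower in NZB and 1 higher.

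Relative to the mid-parent level, the leading genes higher in NZBWF1 were mostly genes far lower in 1 parent than in the other. They were *Ftl1-ps1*, *Ftl1*, *Ifi202b*, *Ly6c1*, *Mndal*, *Pi16*, *Gm42031*, *Tpm3-rs7*, *Psme2b*, and *Ifit3*. For such genes a level halfway between the parents lies above their average on the log scale. Against the arithmetic mean of the parents the differences of *Ftl1*, *Ly6c1*, *Tpm3-rs7*, and *Gm42031* turned negative. *Ifit3* differs from these, since NZBWF1 (76.3 ± 28.1 CPM) was near the higher parent (68.1 ± 22.5). The leading genes that were lower were *Pycard*, *S100a10*, *Hmgn2*, *F10*, *Cenpa*, *Nucks1*, *Hmgb2*, *S100a11*, *Ran*, and *Lgals1*, of which *S100a10* had 1749 ± 77.3 in NZB, 1181 ± 69.1 in NZW, and 1033 ± 58.8 in NZBWF1. Outside the lists, NZB was above NZW for *Chil1* (324 ± 42.9 against 51.0 ± 3.44 CPM) and for *Spp1*, osteopontin (110 ± 31.3 against 4.65 ± 2.18), with NZBWF1 at 150 ± 28.2 and 15.6 ± 4.74.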

How the data were processed

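The authors counted reads with Cell Ranger 3.1.0 (mm10, per the labels' processing notes), and deposited 1 matrix of UMI counts over the 9 merged libraries, with no normalization per cell. Each cell was given to a mouse by its barcode's numeric suffix, read as a row of the library list. The sources used here do not say whether libraries were brought to equal depth when merged. Barcodes were kept with at least 1000 UMIs, 500 genes, and at most 10% mitochondrial UMIs. UMIs of the chosen cells were summed per mouse and tested with edgeR 4.0.16 (TMM, filterByExpr, robust quasi-likelihood, coefficients -0.5, 1, and -0.5), with a threshold of 0.05. Genes of the rule counted in library sizes and were not tested. CPM are of the summed UMIs of a group of cells. Effects in dividing cells and neutrophils were compared with the mouse as a block, with the cells with cycle UMIs kept. Shares were compared by exact two-sided permutation of mice, which can reach 0.00357 for 3 strains and 0.1 for a pair. Intervals cover counting error only.

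The cells and gene lists were chosen with earlier results of these data known. Named genes were the 10 of smallest p per direction, called list members, those of highest level, and the leading interactions. On counts simulated for NZBWF1 against the mid-parent level alone (6757 genes), 194 of 200 genes changed 2-fold were recovered, and 8 unchanged genes were called. The changed genes were drawn only from genes above a limit of mean UMIs. Every gene had the same spread (dispersion 0.01), and the parents did not differ. Recovery among genes of few UMIs was not tested. Alternatives covered quality limits, the rule, tools, filters, free RNA, a replicate block, and each mouse left out. Leaving out cells with cycle UMIs, the dividing share, the share of cells with 10 interferon-stimulated genes, and summed copies were added after the data were seen. Of the gene identifiers 31011 of 31053 matched GENCODE vM21. Some genes are not reported here.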

Additional observations from a re-analysis of the deposited data

Results flagged for a closer look

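Strain effects that differed between the non-dividing monocytes and another group of cells of the same mice are given as the difference of the 2 log2 effects, tested in 1 edgeR model with the mouse as a block. Against granule-high neutrophils, the effect of NZBWF1 over the mid-parent level was larger in monocytes for *Irf7* (1.79), *Ifit3* (3.57), and *Ly6a* (2.88), and smaller for *Ly6c2* (-2.83) and *Ear2* (-1.58). *Ifit3* and *Ly6a* were at low levels, with 2.30 ± 2.05 and 4.60 ± 4.09 CPM in NZB monocytes. In neutrophils of NZB, NZW, and NZBWF1 *Ifit3* had 6.04 ± 7.12, 4.46 ± 1.57, and 3.16 ± 2.43. *Ly6a* had 11.6 ± 12.6, 2.35 ± 1.16, and 4.20 ± 2.68 there. The effect of NZB over NZW differed by 6.37 for *Ly6c2*, 2.18 for *Chil1*, and 2.36 for *Rnpep*, and by -1.98 for *Ifitm3* and -2.50 for *Cd33*. *Ly6c2* was near 0 in NZB neutrophils (1.47 ± 1.30 CPM) but not in NZB monocytes (362 ± 12.8). *Ifitm3* had 3380 ± 380 CPM in NZB monocytes, 3489 ± 421 in NZW, and 4013 ± 53.0 in NZBWF1, while it was higher in NZB in neutrophils (1970 ± 256 against 605 ± 77.7). *Rnpep* had 160 ± 14.4 and 151 ± 11.2 in the parents' monocytes, and was lower in NZB in neutrophils (9.55 ± 0.796 against 53.6 ± 3.55).

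Against the dividing cells, the effect of NZBWF1 over the mid-parent level was larger for *Ifitm3* (0.55) and smaller for *Hmgb2* (-0.44), *S100a10* (-0.44), *Ran* (-0.59), and *Ppia* (-0.37). The effect of NZB over NZW differed by -0.83 for *Cybb*, 0.78 for *Lgals1*, -2.89 for *Irf7*, 0.65 for *S100a10*, and 0.81 for *Ly6c2*. *Irf7* had 31.9 ± 10.2 CPM in NZB dividing cells, 12.1 ± 4.69 in NZW, and 16.1 ± 3.86 in NZBWF1, so that NZB was the highest strain there and the lowest in the non-dividing cells. *S100a10* in dividing cells was at 1732 ± 115, 1825 ± 85.5, and 1734 ± 33.8. Cells with cycle UMIs were more frequent in the non-dividing monocytes of NZB, and these differences were not computed without them.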

How the results depend on the processing

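The number of genes past the threshold moved with the tool, the depth, and the mouse left out. In the order NZBWF1 against the mid-parent level, NZB against NZW, NZBWF1 against NZB, and NZBWF1 against NZW, DESeq2 gave 53, 635, 362, and 30. Cells of at least 2000 UMIs and 1000 genes gave 11, 264, 126, and 15. Sums thinned to the smallest mouse moved the last 3 to 645, 437, and 23. With no filter on low counts the first was 142, and with 10 UMIs in every mouse the last was 16. Without the cells with cycle UMIs the first 3 were 36, 586, and 268. Leaving out 1 mouse gave 43 to 135, 639 to 1159, 311 to 701, and 28 to 58. The first fell to 43 and 51 without NZBWF1 replicates 3 and 2 and to 49 without NZB replicate 2, and rose to 135 without NZB replicate 1. The last fell to 28 without NZBWF1 replicate 3 and 30 without NZW replicate 3. Without the cells with cycle UMIs *Hmgb2* went to 0.015 against the mid-parent level and to 0.15 against NZB. In cells of at least 2000 UMIs *mt-Cytb* went to -0.023 between NZB and NZW. Against the arithmetic mean of the parents *Ctse* was at -0.085, *Ftl1* at -0.20, *Gm42031* at -0.65, *Tpm3-rs7* at -0.021, and *Ly6c1* at -0.055. For the differences between groups of cells, NZBWF1 against the mid-parent level had 6 genes against neutrophils, 12 with limma-voom, 1 with 10 UMIs in every sum, and 2 to 18 with 1 mouse left out. That of NZB and NZW had 184 to 385. Against dividing cells these ranges were 19 to 82 and 60 to 209, with 60 without NZB replicate 2, and limma-voom gave 79 for the first. For the share of monocytes the p was 0.979 in cells of at least 2000 UMIs, where the mean of NZB was no longer the lowest, and 0.0143 to 0.168 with 1 mouse left out. The dividing percent of NZB exceeded that of NZW by 21.1 to 29.8 points with 1 mouse left out. For the share with MHC class II genes the p was 0.0214 at 1 UMI or more and 0.0143 to 0.15. The cause of these moves was not tested.

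Replicate numbers are shared by the strains, and the sources used here do not say whether they pair the mice. In each strain the median depth of the monocytes was highest in replicate 1 and lowest in replicate 2. NZB had 2540.5, 2036, and 2231 UMIs in replicates 1 to 3. NZW had 1906, 1481, and 1776, and NZBWF1 2188.5, 1585, and 1756. Whether mice of the same number shared a step of handling was not tested. The deviations of mice with the same number correlated at -0.0711 to 0.0477, and those of other pairs at -0.0882 to 0.0772. With a replicate block the 4 counts were 90, 985, 601, and 38. The planned share of cells by *Chil3* has no value, since *Chil3* had 0 UMIs.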
